A study of Mus musculus with 8 samples.

Results

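Interleukins are secreted proteins through which blood and immune cells signal to each other, and this account covers the genes of the interleukins and of their receptors. The genes were chosen by name: every row of the larger deposited table whose symbol begins with Il and a digit was taken, provided that at least 2 libraries lay above the lowest value the row can take (its floor). Of 82 such rows, 62 passed, out of 18051 rows that passed the same filter over the whole table. Of the rows left out, 19 lay at the floor in every library (Il2, Il3, Il9, Il12b, Il13, Il17a, Il19, Il20, Il21, Il22, Il24, Il25, Il31, Il1f5, Il1f6, Il1f8, Il1f10, Il1rapl1 and Il1rapl2). Il10 fell just outside, with 2.06 reads in Ezh1-present tamoxifen replicate 2 and the floor in the other 7 libraries. Il6 fell just inside, with 4 and 8 reads in the Ezh1-present tamoxifen libraries and the floor in the other 6. Since Il6 passed through that group alone, its difference from the other groups was fixed by the filter. Il13ra2, above the floor in 3 libraries, also passed only with that group, so both genes are given by their reads, without their test results. Both stay in the fit and in the counts, medians, correlations and figures over the 62 members.

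RNA was sequenced from acute myeloid leukaemia cells of C57BL/6 mice, taken from bone marrow and described in the study's design as c-kit+. Every library title begins with Moz, so that label is shared by all groups. The 8 libraries form 4 groups of 2. Ezh1-null tamoxifen libraries are labelled Ezh1-/- Ezh2-/- and Ezh1-null oil libraries Ezh1-/- Ezh2+/+. Ezh1-present tamoxifen libraries are labelled Ezh1+/+ Ezh2-/- and Ezh1-present oil libraries Ezh1+/+ Ezh2+/+. For the oil groups the design text gives Ezh2 flox/flox in place of Ezh2+/+, so an Ezh2 allele that carries lox sites is shared by all groups according to that text. Tamoxifen was given at 10 mg/kg/day for 5 doses in corn oil, controls received corn oil, and samples date from 7 days after treatment. The labels name no Cre line, and nothing in them tells whether replicates come from different mice, so each p measures the spread between these libraries, which may be technical. Tamoxifen and loss of Ezh2 go together in every library and cannot be told apart, nor can the Ezh1 genotype and any difference in origin between the leukaemias.

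Ezh1 and Ezh2 are the alternative enzymes of Polycomb repressive complex 2, which methylates lysine 27 of histone H3 and keeps genes silent. In mammals that complex is found mostly at promoters rich in CG pairs. Interleukins of the common gamma chain group (IL-2, IL-4, IL-7, IL-9, IL-15 and IL-21), those of the IL-6 and IL-12 groups and IL-3 and IL-5 signal through receptors bound to JAK kinases, which activate STAT factors. Members of the IL-1 group signal through MyD88 and IRAK kinases, and those of the IL-17 group through their own adaptor. In the bone marrow, IL-3 and IL-6 support myeloid progenitors, IL-7 supports B-lymphoid ones, IL-15 supports NK cells and IL-5 eosinophils.

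Each value below is on the log2 scale and relative to that gene's median across all 8 libraries, so it compares libraries for 1 gene and says nothing of the level of the gene. The floor is a normalized count of 1. For the 10 members with libraries tied at the floor, the values could be turned back into reads, and none exceeded 12 reads in any library. A gene was called where limma's moderated test, fitted over all 18051 rows and 8 libraries, gave a Benjamini-Hochberg adjusted p under 0.05. Changes are given ± the standard error of that fit. The normalized value of a single read, which is higher where relative depth is lower, lay between 0.746 and 1.24 in the 8 libraries. It was 1.06 and 1.09 in Ezh1-null tamoxifen and 1.24 and 1.14 in Ezh1-null oil libraries. In Ezh1-present libraries it was 0.746 and 1.01 after tamoxifen and 0.890 and 0.874 in oil. Every Ezh1-null library was thus shallower than every Ezh1-present one, and genes without reads there were sought at lower depth. Within groups, the median SD of the members was 0.187 in Ezh1-null tamoxifen, 0.312 in Ezh1-null oil, 0.357 in Ezh1-present tamoxifen and 0.190 in Ezh1-present oil libraries, against 0.115, 0.116, 0.142 and 0.125 over all rows. The members therefore varied more between replicates than the typical gene.

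The targeted genes come first. Ezh1 lay at -1.61 and -1.55 in Ezh1-null tamoxifen, -1.75 and -1.94 in Ezh1-null oil, 1.55 and 1.63 in Ezh1-present tamoxifen, and 1.71 and 1.66 in Ezh1-present oil libraries, which follows the labels. Ezh2 lay at -0.53 and -0.56, at -0.12 and -0.03, at 0.09 and 0.03, and at 0.25 and 0.23 with the groups taken in that order. Its tamoxifen change was -0.47 ± 0.08 without Ezh1 (limma adjusted p = 0.0554) and -0.18 ± 0.08 with Ezh1 present (limma adjusted p = 0.293), neither of them called. The deposited value covers the whole gene, so it checks the deletion only in part. None of the 10 leukaemia and progenitor markers (Kit, Mpo, Meis1 and others) lay at the floor throughout a group. Of these 10, 5 (Kit, Mpo, Elane, Prtn3 and Ctsg) were called higher and 1 (Meis1) lower between genotypes in oil, and after tamoxifen the same 5 were higher and Meis1 and Flt3 lower. Their mean ran from -0.04 to 0.09 in Ezh1-null tamoxifen, 0.29 to 0.36 in Ezh1-null oil, -0.32 to -0.26 in Ezh1-present tamoxifen and -0.72 to -0.54 in Ezh1-present oil libraries. Markers of other cell types were measured as well, and their values differed between groups. The mean of 18 T and NK cell markers ran from 0.39 to 0.44 in Ezh1-null tamoxifen, -1.17 to -0.71 in Ezh1-null oil, 0.78 to 1.87 in Ezh1-present tamoxifen and -1.57 to -1.43 in Ezh1-present oil libraries. In bulk samples, fewer cells of a type and less RNA per cell cannot be told apart.

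The promoters of Il15ra, Il28ra, Il17f and Il1a are shown first, since CG content is the sequence feature linked to Polycomb complexes. None was at hand for Il15 or Il17ra, and those of Il2rg and Il1f9 are not printed. RefSeq sequence (GRCm38.p6) was at hand for 63 promoters of 49 of the 62 members, each as 250 bases before the start of transcription. The last 150 of these bases are printed 5′ to 3′. For the IL-15 receptor gene Il15ra and the interferon lambda receptor gene Il28ra, both higher in Ezh1-null cells, capitals mark every CG pair. For Il17f, lower in Ezh1-null cells, and Il1a, the member called with tamoxifen in both genotypes, capitals mark the letters TATAAA.
Il15ra, first start, chr2:11705143-11705292, plus strand: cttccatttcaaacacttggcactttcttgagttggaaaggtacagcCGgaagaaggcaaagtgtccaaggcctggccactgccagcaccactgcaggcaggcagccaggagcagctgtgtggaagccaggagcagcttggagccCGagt
Il15ra, second start, chr2:11705562-11705711, plus strand: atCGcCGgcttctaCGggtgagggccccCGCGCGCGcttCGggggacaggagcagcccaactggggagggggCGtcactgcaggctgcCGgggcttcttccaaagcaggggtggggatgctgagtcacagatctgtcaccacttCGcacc
Il28ra, chr4:135686307-135686456, plus strand: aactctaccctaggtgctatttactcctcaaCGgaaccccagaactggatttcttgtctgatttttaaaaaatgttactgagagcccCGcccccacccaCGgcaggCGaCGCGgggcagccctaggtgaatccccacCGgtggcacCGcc
Il17f, chr1:20784271-20784420, minus strand: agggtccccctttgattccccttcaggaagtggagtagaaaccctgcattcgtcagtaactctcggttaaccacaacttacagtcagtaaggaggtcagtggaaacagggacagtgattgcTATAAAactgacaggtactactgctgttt
Il1a, chr2:129309973-129310122, minus strand: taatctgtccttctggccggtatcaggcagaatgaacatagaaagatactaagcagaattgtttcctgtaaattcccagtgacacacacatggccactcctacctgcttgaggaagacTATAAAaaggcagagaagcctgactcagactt

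The second start of Il15ra has 11 CG pairs in the printed stretch and the first has 2, while Il28ra has 8, Il17f 2 and Il1a 1. Interleukin promoters were poorer in CG than promoters in general. A promoter was counted as CG-rich where CG pairs reached over 0.6 of the number expected from its C and G and where C and G made up over 50% of its 250 bases. That held for 11 of 63 member promoters (17.5%), against 30.8% of all 32851 promoters in the table. TATAAA, searched on both strands, stood in 9 member promoters (14.3%) and in 12.4% of all promoters. It begins 29 bases before the start in Il17f and 32 bases before it in Il1a. The letters TTCNNNGAA, which are the same on both strands and are the core that STAT factors bind, stood in 6 member promoters (9.52%) and in 7.02% of all. A match describes letters and is not a binding site. The members called higher in Ezh1-null oil libraries had 14 promoters with a median of 2 CG pairs (range 0 to 30), and the members called lower had 9 promoters with a median of 4 (range 2 to 21). Of these, 2 of the 14 and 3 of the 9 counted as CG-rich. Among the printed genes, only Il28ra had a CG-rich promoter, and neither start of Il15ra did.

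**Figure D1:**
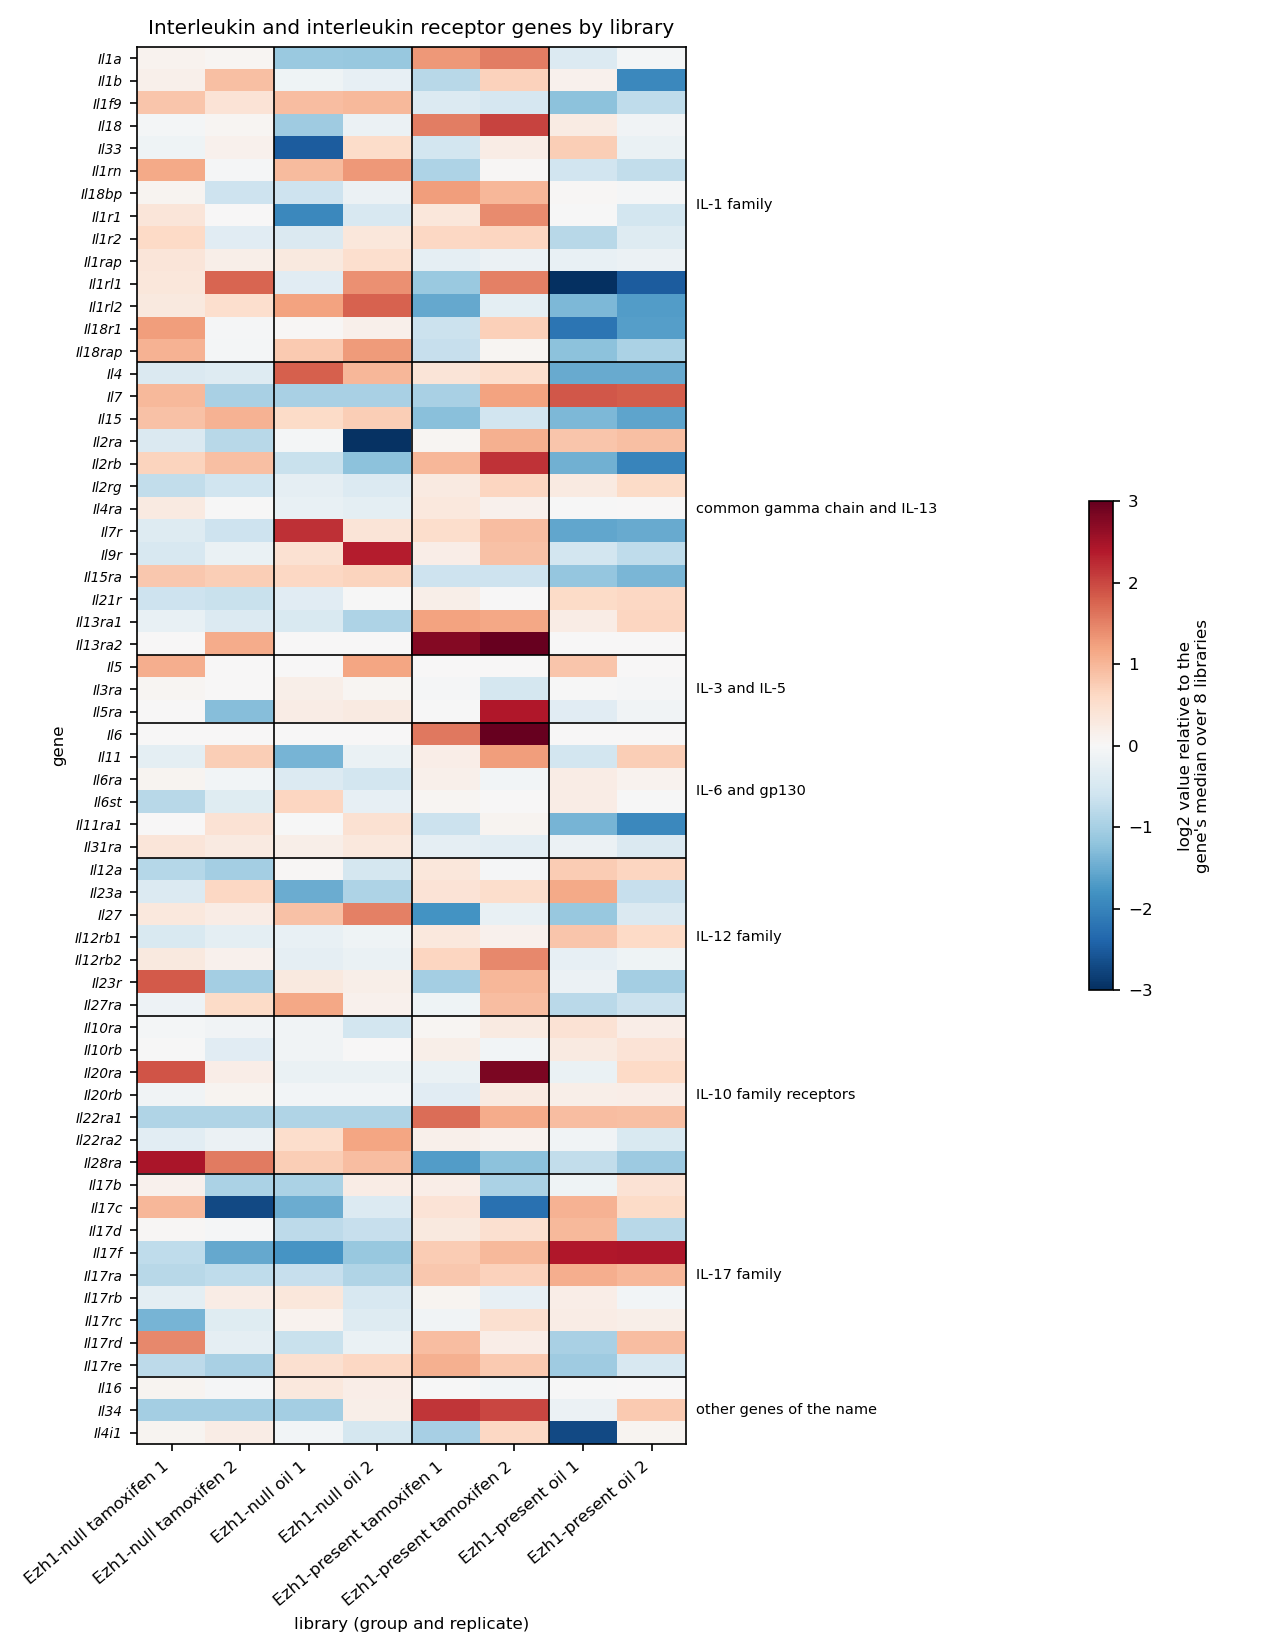
Heat map of the 62 interleukin and receptor genes (rows, by family) in the 8 libraries (columns), as log2 value relative to the gene's median, with colours capped at 3 in either direction. Il15, Il15ra and Il28ra are above their median in all 4 Ezh1-null libraries and below it in all 4 Ezh1-present ones, and Il17f, Il17ra and Il2rg show the opposite.

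The comparison of Ezh1-null with Ezh1-present cells in oil asks what differs without Ezh1 while Ezh2 is not deleted. Here 23 of the 62 members were called (37.1%), against 24.9% of all rows tested. Of these, 13 were higher (12.5% of all rows were called higher) and 10 lower (12.4% of all rows). The IL-15 pair and the interferon lambda receptor were higher in Ezh1-null cells, and IL-17F with its receptor chain Il17ra and the common gamma chain Il2rg were lower. Groups did not overlap for 45 members, against 65.8% of all rows. The members' median difference was -0.03, and it was 0 with members at the floor set to their limit, against -0.04 over all rows.

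Il15 (chr8:82331624-82403211, mm10) encodes IL-15, the cytokine that maintains NK cells. It lay at 0.87 and 1.04 in Ezh1-null tamoxifen, 0.57 and 0.73 in Ezh1-null oil, -1.26 and -0.57 in Ezh1-present tamoxifen, and -1.35 and -1.58 in Ezh1-present oil libraries. All 4 Ezh1-null libraries were above all 4 Ezh1-present ones. The difference in oil was 2.11 ± 0.25, or 4.32-fold (limma adjusted p = 0.00619).

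Il15ra (chr2:11705536-11733962, mm10) encodes the chain that presents IL-15 to neighbouring cells. Its values were 0.82 and 0.74 in Ezh1-null tamoxifen, 0.62 and 0.67 in Ezh1-null oil, -0.62 and -0.63 in Ezh1-present tamoxifen, and -1.15 and -1.38 in Ezh1-present oil libraries. As for Il15, the genotypes did not overlap. Il15ra differed in oil by 1.91 ± 0.11, or 3.75-fold (limma adjusted p = 0.00211). Over the 8 libraries, Il15 and Il15ra were the most alike of all members to each other (Pearson r = 0.979, n = 8 libraries, a description only). The other receptor chains for IL-15 did not follow them. Il2rb, the beta chain shared with IL-2, differed in oil by 0.77 ± 0.45 (limma adjusted p = 0.271), and Il2rg was lower.

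Il2rg (chrX:101264387-101268206, mm10), the gamma chain shared by the receptors for IL-2, IL-4, IL-7, IL-9, IL-15 and IL-21, lay at -0.73 and -0.59 in Ezh1-null tamoxifen, -0.26 and -0.40 in Ezh1-null oil, 0.28 and 0.65 in Ezh1-present tamoxifen, and 0.26 and 0.58 in Ezh1-present oil libraries. The genotypes did not overlap. In oil Il2rg differed by -0.76 ± 0.18 (limma adjusted p = 0.036). It was no longer called without either Ezh1-null tamoxifen library (0.0653 for each), without Ezh1-null oil replicate 1 (0.0924) or 2 (0.145), or without Ezh1-present oil replicate 1 (0.0682) or 2 (0.132), nor with quantile normalization (0.0619).

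Within the common gamma chain and IL-13 group of 13 members, 4 were called higher and 3 lower in oil. Beside the genes above, Il4 and Il7r were higher and Il21r and Il13ra1 lower. Il7r, the IL-7 receptor of lymphoid progenitors, lay at 2.18 and 0.38 in Ezh1-null oil libraries, against -1.56 and -1.51 in Ezh1-present oil libraries, a difference of 2.82 ± 0.58 (limma adjusted p = 0.0247). This call ended without either Ezh1-present oil library (0.106 and 0.0924) or either Ezh1-null tamoxifen library (0.0517 for each). B cell markers moved with it: 6 of 9 were called higher in Ezh1-null oil libraries, and their mean ran from 1.97 to 2.65 there, against -1.96 to -1.37 in Ezh1-present oil libraries, in which Pax5 was at the floor. Ms4a1 of that list had a negative difference that was not called (-1.02, limma adjusted p = 0.425). After tamoxifen the B cell markers and Il7r did not go together. The mean of the markers ran from 0.92 to 1.76 in Ezh1-null tamoxifen against -1.44 to -1.04 in Ezh1-present tamoxifen libraries, while Il7r lay at -0.38 and -0.62 against 0.53 and 0.92 (limma adjusted p = 0.213). The part of such cells in the result for Il7r was not tested. Il21r, which binds IL-21, differed by -0.78 ± 0.14 (limma adjusted p = 0.0163) and lost the call without either Ezh1-present oil library (0.0728 and 0.0724). Il13ra1, the signalling receptor for IL-13, differed by -1.12 ± 0.22 (limma adjusted p = 0.0213) and lost it without replicate 2 of Ezh1-null oil (0.0818) or of Ezh1-present oil (0.0807). Il4, the basophil and T helper cytokine, had 8 and 5 reads in Ezh1-null oil libraries and 0 in both Ezh1-present oil libraries. It was called higher (limma adjusted p = 0.00362). Against a limit of 6 reads for each library without reads it was 1.42-fold higher. That limit leaves out counting error in the 8 and 5 reads, so 1.42 is no lower bound. With the floor raised to 4 the difference was 0.91 ± 0.25 (limma adjusted p = 0.0479). Il4ra, the receptor chain for IL-4 and IL-13, was not called in any of the 6 comparisons, with changes between -0.25 and 0.39.

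The IL-17 group holds 9 members, of which 2 were called lower and 1 higher in oil. Il17f (chr1:20777146-20784270, mm10) encodes IL-17F, a cytokine that acts on epithelial and stromal cells. It lay at -0.77 and -1.54 in Ezh1-null tamoxifen, -1.77 and -1.15 in Ezh1-null oil, 0.77 and 0.96 in Ezh1-present tamoxifen, and 2.40 and 2.42 in Ezh1-present oil libraries. The 2 Ezh1-present oil libraries were the highest and all Ezh1-null libraries the lowest. In oil Il17f differed by -3.87 ± 0.32, or 14.6-fold lower (limma adjusted p = 0.00323). Its paralogue Il17a was at the floor in every library.

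Il17ra (chr6:120463197-120483727, mm10), the receptor chain that IL-17A, IL-17F, IL-17C and IL-17E share, lay at -0.83 and -0.76 in Ezh1-null tamoxifen, -0.69 and -0.90 in Ezh1-null oil, 0.82 and 0.69 in Ezh1-present tamoxifen, and 1.09 and 1.00 in Ezh1-present oil libraries. Each genotype formed a narrow band. The difference in oil was -1.84 ± 0.11, or 3.59-fold lower (limma adjusted p = 0.00234). Il17re, the receptor for IL-17C, went the other way in oil, at 0.47 and 0.63 in Ezh1-null against -1.07 and -0.47 in Ezh1-present libraries, a difference of 1.32 ± 0.23 (limma adjusted p = 0.0159). That call ended without Ezh1-null oil replicate 1 (0.0555) or 2 (0.0782). Il17c itself was not called, and its replicates were far apart, at 1.00 and -2.71 in Ezh1-null tamoxifen libraries.

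**Figure D2:**
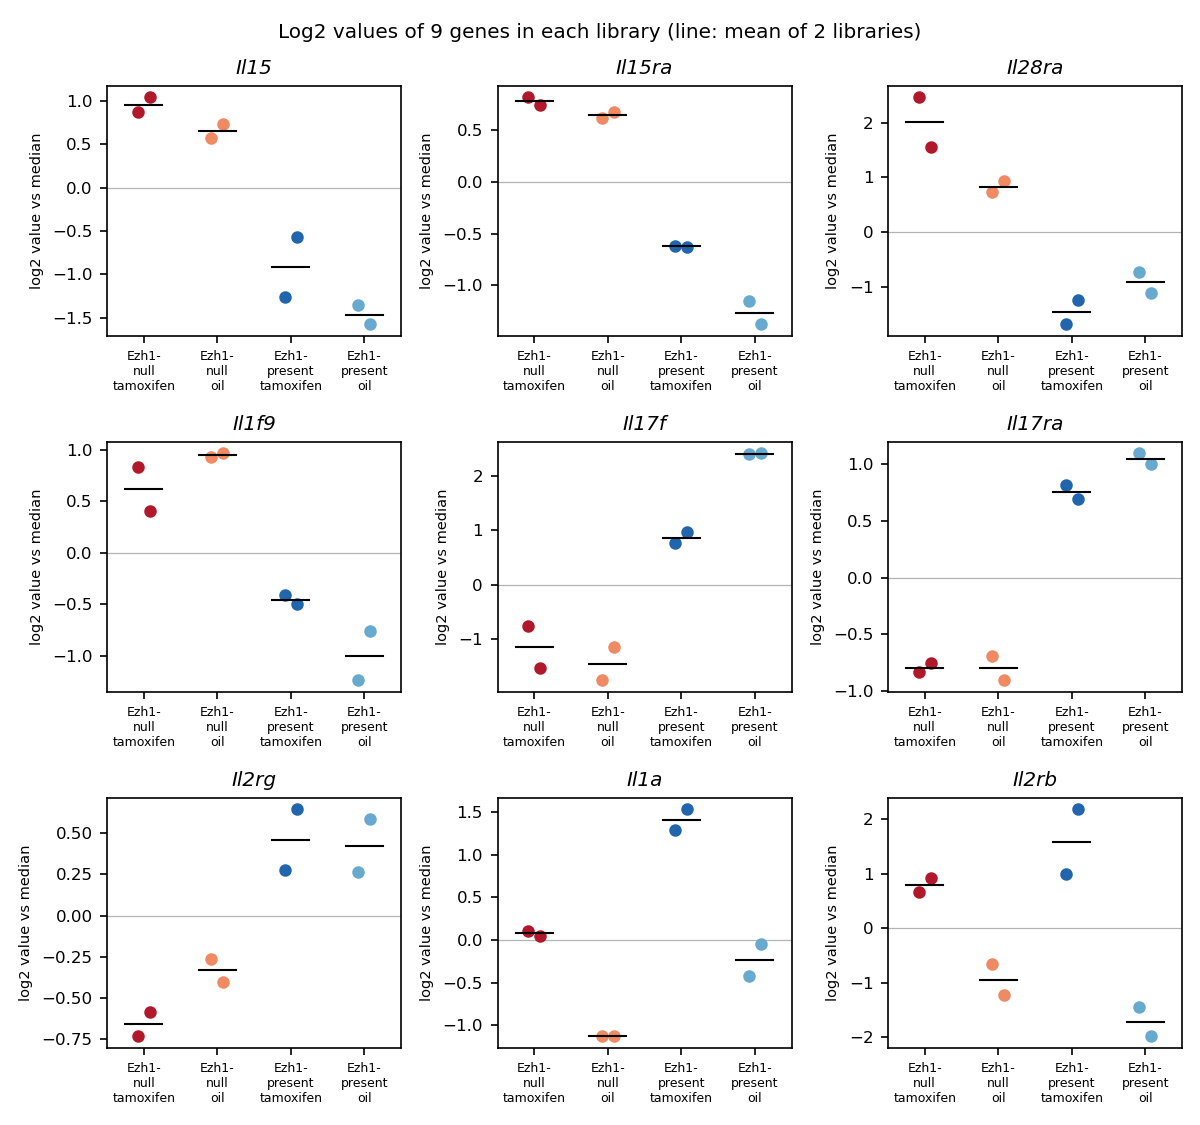
Log2 value relative to the gene's median (y axis, scale set per gene) of 9 genes in each library, with groups on the x axis, 2 points per group and a line at their mean. Il15, Il15ra, Il28ra and Il1f9 were higher in the 4 Ezh1-null libraries than in any Ezh1-present one, Il17f, Il17ra and Il2rg were lower, and Il1a and Il2rb were higher after tamoxifen than in oil within each genotype.

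In the IL-1 group of 14 members, 4 were called higher and 1 lower in oil. Il1f9, which encodes IL-36 gamma, lay at 0.84 and 0.41 in Ezh1-null tamoxifen, 0.93 and 0.97 in Ezh1-null oil, -0.41 and -0.50 in Ezh1-present tamoxifen, and -1.24 and -0.76 in Ezh1-present oil libraries. The genotypes did not overlap, and the difference in oil was 1.95 ± 0.21, or 3.85-fold (limma adjusted p = 0.00547). The lower member was Il1a, which encodes IL-1 alpha, at -0.89 ± 0.16 (limma adjusted p = 0.0165), a call that ended without either Ezh1-null oil library or Ezh1-present oil replicate 2 (0.0539 to 0.0749). With quantile normalization the difference of Il1a was -0.52 and not called (limma adjusted p = 0.112). Il1rl2, the receptor for IL-36, was higher by 2.99 ± 0.45 (limma adjusted p = 0.0109), with 1.21 and 1.76 in Ezh1-null oil libraries against -1.35 and -1.67 in Ezh1-present oil libraries. It lost the call without Ezh1-null oil replicate 2 (0.0582) and without Ezh1-present oil replicate 1 (0.0533) or 2 (0.0573). Il1rap, the accessory chain that the receptors for IL-1, IL-33 and IL-36 share, lay at 0.37 and 0.17 in Ezh1-null tamoxifen, 0.28 and 0.51 in Ezh1-null oil, -0.27 and -0.18 in Ezh1-present tamoxifen, and -0.21 and -0.17 in Ezh1-present oil libraries. No Ezh1-present library reached an Ezh1-null one. The difference in oil was small, 0.59 ± 0.12 (limma adjusted p = 0.0262), and the call ended without Ezh1-null oil replicate 2 (0.106) or Ezh1-present oil replicate 1 (0.11) or 2 (0.0884).

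Il1rl2 lies in a run of 6 receptor genes of the IL-1 group, Il1r2, Il1r1, Il1rl2, Il1rl1, Il18r1 and Il18rap, at chr1:40084768-40549297 (mm10). In oil, 5 of the 6 had positive differences, and Il1rl2 and Il18rap were called. Il18rap, the accessory chain of the IL-18 receptor, was higher by 2.13 ± 0.45 (limma adjusted p = 0.0275), a call that ended without Ezh1-null oil replicate 1 (0.0684) or 2 (0.121) and without Ezh1-present oil replicate 1 (0.121) or 2 (0.0868). Il1rl1, the receptor for IL-33 on mast cells and basophils, lay at 0.35 and 1.74 in Ezh1-null tamoxifen, -0.35 and 1.37 in Ezh1-null oil, -1.11 and 1.51 in Ezh1-present tamoxifen, and -3.34 and -2.50 in Ezh1-present oil libraries. Only the Ezh1-present oil libraries stood apart, and with such spread the difference of 3.43 ± 1.09 was not called (limma adjusted p = 0.0763). Il1r1, the IL-1 receptor, had the only negative difference of the run, -0.93, which was not called (limma adjusted p = 0.308). The mean of basophil, mast cell and eosinophil markers moved in the same direction, but the list was mixed. Ear6 had a mean of -5.345 in Ezh1-null oil against -1.073 in Ezh1-present oil libraries, and Hdc and Ccr3 had lower means there too. In oil, 5 of the 15 tested were called higher and 1 lower in Ezh1-null cells, and their mean ran from -0.49 to 0.34 in Ezh1-null oil libraries against -2.44 to -2.11 in Ezh1-present oil libraries. Of the 15, Tpsb2 was at the floor in the Ezh1-null oil libraries, and Fcer1a and Tpsb2 were at it in the Ezh1-present oil libraries. Mcpt4, at the floor in every library, was not tested. Mature neutrophil markers were higher too, with 5 of 9 called and a mean of 0.55 to 1.14 in Ezh1-null oil against -2.94 to -2.48 in Ezh1-present oil libraries. The part of these cells in the results for the IL-1 group was not tested.

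Il28ra (chr4:135686457-135708180, mm10), the interferon lambda receptor, lay at 2.46 and 1.56 in Ezh1-null tamoxifen, 0.73 and 0.93 in Ezh1-null oil, -1.68 and -1.24 in Ezh1-present tamoxifen, and -0.73 and -1.10 in Ezh1-present oil libraries. The genotypes were apart under both treatments, and the interaction of 1.72 ± 0.49 was not called (limma adjusted p = 0.227). The difference in oil was 1.74 ± 0.34 (limma adjusted p = 0.0222), and it lost the call without Ezh1-null oil replicate 1 (0.0709) or 2 (0.101) and without Ezh1-present oil replicate 1 (0.0728) or 2 (0.0965). Its neighbour Il22ra1, the IL-22 receptor chain, had no read in the 4 Ezh1-null libraries, 8 and 4 reads in Ezh1-present tamoxifen and 4 and 4 in Ezh1-present oil libraries. Il22ra1 thus passed the filter through Ezh1-present libraries alone, which fixed the sign of its difference between genotypes. It was called lower in oil (limma adjusted p = 0.00486), but its counts are at or near the limit of 6 reads per library, and with the floor raised to 4 the adjusted p was 1. Il22ra2, a soluble inhibitor of IL-22, was higher by 1.13 ± 0.25 (limma adjusted p = 0.0291) and lost the call without any of 7 of the 8 libraries (adjusted p from 0.0563 to 0.117), Ezh1-null oil replicate 1 being the exception. Il10ra and Il10rb, the receptor chains for IL-10, were not called in any comparison.

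In the IL-6 and IL-12 groups, Il11ra1, Il31ra, Il6ra, Il12a and Il12rb1 were called. Il11ra1, the IL-11 receptor, was higher by 1.89 ± 0.35 (limma adjusted p = 0.0181). It may share reads with its near-identical copy Il11ra2, so its value is uncertain, and the call ended without Ezh1-null oil replicate 2 (0.0858) or Ezh1-present oil replicate 1 (0.0546) or 2 (0.0794). Il31ra, a receptor chain for IL-31, was higher by 0.54 ± 0.12 (limma adjusted p = 0.0319), and Il6ra, the IL-6 receptor, was lower by 0.65 on the log2 scale (limma adjusted p = 0.0217). Il31ra lost the call without any 1 of the 8 libraries (adjusted p from 0.0507 to 0.133). Il6ra lost it without Ezh1-null oil replicate 1 (0.058) or 2 (0.099) and without Ezh1-present oil replicate 1 (0.102) or 2 (0.0694). Il6st, the signal-transducing chain gp130, was not called in any comparison. Il12a, the p35 chain of IL-12, differed by -0.94 ± 0.23 (limma adjusted p = 0.0418) and lost the call without any 1 of 7 libraries (0.0545 to 0.156), Ezh1-null oil replicate 1 being the exception. Il12rb1, the receptor chain shared by IL-12 and IL-23, differed by -0.89 ± 0.13 (limma adjusted p = 0.0111) and lost it without replicate 1 of Ezh1-null oil (0.0513) or of Ezh1-present oil (0.056). Il3ra, the IL-3 receptor of myeloid progenitors, was not called in any comparison, with differences between -0.26 and 0.32.

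Il7 and Il2ra, the high-affinity IL-2 receptor chain, were among the largest negative differences in oil but were not called: Il7 had no read in Ezh1-null oil libraries against 8 and 7.88 (limma adjusted p = 0.0785), and Il2ra differed by -2.38 ± 0.95 (limma adjusted p = 0.13), with Ezh1-null oil replicate 2 at -2.96. Of the 23 calls in oil, 7 held without any 1 library: those of Il4, Il15, Il15ra, Il1f9, Il17f, Il17ra and Il22ra1. For Il22ra1 this is no sign of stability, since its Ezh1-null libraries tie at the floor and have a spread of 0. The Ezh1-present oil libraries of Il4 tie at the floor in the same way, so its call is no sign of stability either. In the fit of the oil libraries alone, 14 members were called.

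After tamoxifen, where Ezh2 is labelled as lost in both genotypes, 20 members were called between Ezh1-null and Ezh1-present cells (32.3%, against 12.2% of all rows). Of these, 5 were higher (6.77% of all rows) and 15 lower (5.44% of all rows). Without Il6 and Il13ra2, which passed the filter only with the Ezh1-present tamoxifen group, 18 of 60 were called (30%), 5 higher and 13 lower. Il22ra1, which passed through Ezh1-present libraries of both treatments alone, is still among the 13. Groups did not overlap for 36 members, against 62.5% of all rows. The median over the members was -0.26, or -0.20 with members at the floor set to their limit, against 0.00 over all rows. This comparison shares no library with the one in oil. Both were tested with 1 estimate of the spread from all 8 libraries, so their calls are not independent. Of the 23 calls in oil, 15 were also called after tamoxifen (65.2%), which is 75.0% of the 20 calls there, and 14 of the 15 had the same sign. Il22ra1 is among the 14, and the filter fixed its sign in both comparisons. The 20 calls include Il6 and Il13ra2. Over all rows the shared calls made up 35.5% of those in oil and 72.5% of those after tamoxifen. With only the compared groups in each fit, 14 members were called in oil and 1, Il34, after tamoxifen. The Ezh1-null tamoxifen libraries of Il34 tie at the floor, with a spread of 0. Across the 62 members the differences had Pearson r = 0.506 and Spearman rho = 0.517 (n = 62 genes), and across all 18051 rows 0.586 and 0.546. Genes are not independent replicates, and these values describe the libraries only.

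**Figure D3:**
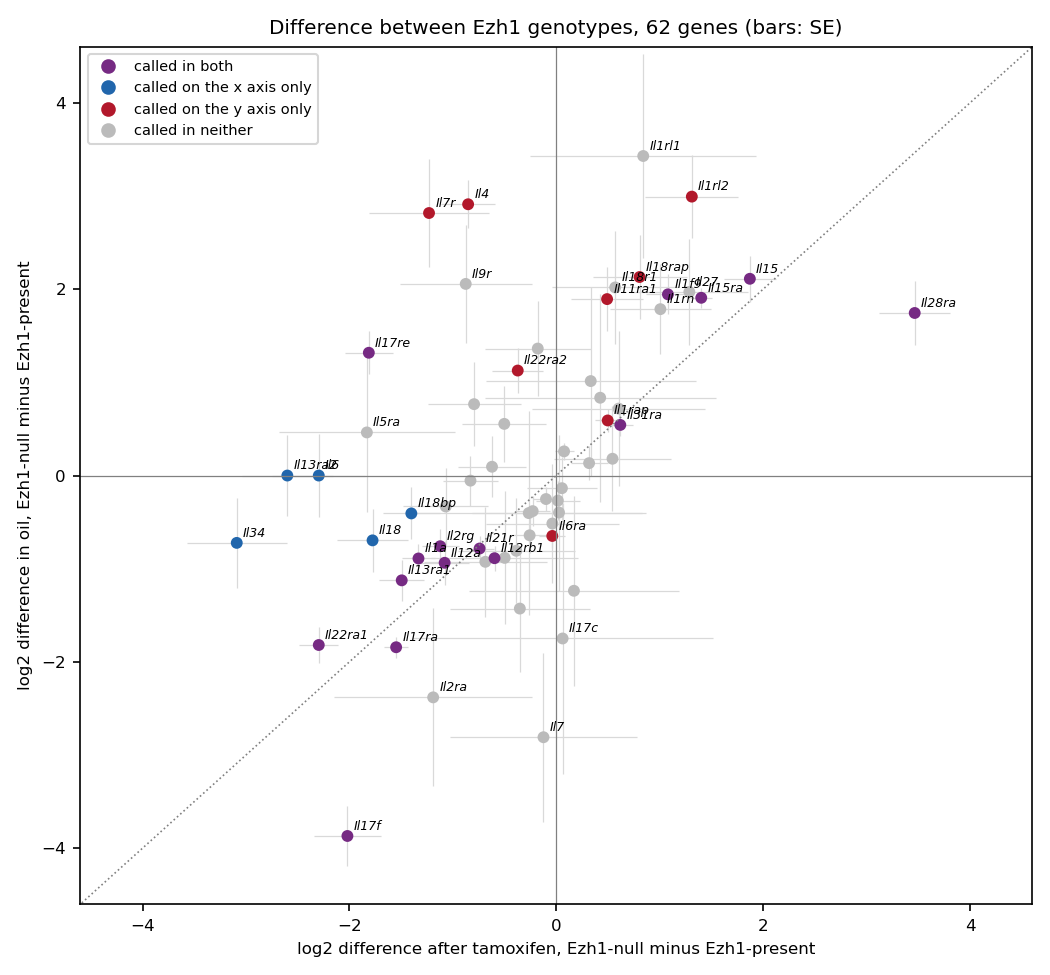
Log2 difference of Ezh1-null minus Ezh1-present libraries for the 62 members, after tamoxifen on the x axis and in oil on the y axis, with bars of 1 SE, colours by call and a dotted line of equality. Most genes called in both lie in the upper right or lower left, among them Il28ra (3.47 and 1.74) and Il17f (-2.02 and -3.87), and Il17re is called with opposite signs (-1.81 and 1.32).

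Il28ra showed the highest difference after tamoxifen, 3.47 ± 0.34 or 11.1-fold (limma adjusted p = 0.011). Il15ra was higher by 1.40 ± 0.11 (limma adjusted p = 0.00656) and Il15 by 1.87 ± 0.25 (limma adjusted p = 0.0179). Without either Ezh1-null tamoxifen library, Il15 was no longer called (0.076 and 0.0802). Il17ra was lower, by -1.55 ± 0.11 (limma adjusted p = 0.00656), as was Il17f, by -2.02 ± 0.32 (limma adjusted p = 0.0247). The call of Il17f ended without any of 6 libraries, those of Ezh1-null tamoxifen, Ezh1-present tamoxifen and Ezh1-present oil (0.0504 to 0.0914). Il2rg was lower by 1.12 on the log2 scale (limma adjusted p = 0.0249), a call that ended without any of the Ezh1-null oil or tamoxifen libraries or of the Ezh1-present tamoxifen libraries (0.05 to 0.112). Il28ra, Il15ra and Il17ra kept their calls without any 1 library. Il22ra1 did too, but its Ezh1-null libraries tie at the floor with a spread of 0, so this is no sign of stability. With the 4 tamoxifen libraries alone in the fit, 1 member was called, and it was Il34. Its Ezh1-null tamoxifen libraries also tie at the floor with a spread of 0, so this is no sign of stability either. In that fit Il15ra, Il17ra and Il28ra had limma adjusted p of 0.0606, 0.061 and 0.0778.

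Beside Il6 and Il13ra2, 3 members were called after tamoxifen and not in oil: Il18, Il18bp and Il34, each lower in Ezh1-null cells. Il34, a ligand of the CSF-1 receptor, had no read in Ezh1-null tamoxifen libraries, against 12 and 8 reads in Ezh1-present tamoxifen libraries. Against the limit for libraries without reads, Il34 was 1.32-fold lower. Counting error in the 12 and 8 reads is left out of that limit, so 1.32 is no lower bound. Il34 was called lower after tamoxifen (limma adjusted p = 0.024). It lost the call without either library of Ezh1-null tamoxifen (0.104 and 0.0951) or Ezh1-present tamoxifen (0.0946 and 0.0825). Il13ra2, the decoy receptor for IL-13, had 0 and 2 reads in Ezh1-null tamoxifen and 9 and 11.8 in Ezh1-present tamoxifen libraries. Il6 had 0 and 0 reads against 4 and 8 in the same groups. Il18, an inflammasome-activated cytokine, lay at -0.05 and 0.05 in Ezh1-null tamoxifen, -1.06 and -0.18 in Ezh1-null oil, 1.53 and 2.03 in Ezh1-present tamoxifen and 0.25 and -0.10 in Ezh1-present oil libraries. Only the Ezh1-present tamoxifen libraries were high. Its difference was -1.78 ± 0.34 (limma adjusted p = 0.0355), and that of Il18bp, the binding protein that blocks IL-18, was -1.40 ± 0.28 (limma adjusted p = 0.0384). Il18 lost its call without any library except those of Ezh1-null oil (0.0662 to 0.143), and Il18bp without any 1 of the 8 (0.059 to 0.135). The Il18 row overlaps those of Bco2 and Tex12, whose reads the deposited values may not keep apart.

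The means of T and NK cell markers and of megakaryocyte and platelet markers were highest in Ezh1-present tamoxifen libraries. Markers of stromal and endothelial cells had their highest mean there too. Their mean over 8 genes ran from -0.31 to -0.22 in Ezh1-null tamoxifen, -0.96 to -0.82 in Ezh1-null oil, 0.73 to 1.84 in Ezh1-present tamoxifen and 0.13 to 0.25 in Ezh1-present oil libraries, and 1 of the 8 (Cdh5) was called lower after tamoxifen. None of the 8 was at the floor throughout a group. The part of any of these cells in the values of Il6, Il13ra2, Il18 and Il34 was not tested.

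Il17re, higher in Ezh1-null cells in oil, was lower there after tamoxifen, by -1.81 ± 0.23 (limma adjusted p = 0.0164), a call that ended without any of the 4 tamoxifen libraries (0.0544 to 0.0758). The remaining calls had the same sign as in oil. Il1a differed by -1.33 ± 0.16 (limma adjusted p = 0.0148), Il13ra1 by -1.49 ± 0.22 (limma adjusted p = 0.0214), Il12a by -1.08 ± 0.23 (limma adjusted p = 0.0462), Il21r by -0.74 ± 0.14 (limma adjusted p = 0.0335) and Il12rb1 by -0.60 ± 0.13 (limma adjusted p = 0.0494). Higher in Ezh1-null cells were Il1f9, by 1.08 ± 0.21 (limma adjusted p = 0.038), and Il31ra, by 0.62 ± 0.12 (limma adjusted p = 0.0382). Il1rl2, among the largest positive differences, was at 1.31 ± 0.45 and not called (limma adjusted p = 0.118). Il22ra1 was called lower with no read in Ezh1-null tamoxifen libraries against 8 and 4 (limma adjusted p = 0.00767; 0.313 with the floor raised to 4). None of the 7 called genes from Il1a to Il31ra kept its call without each library in turn. For Il1a this meant either Ezh1-null tamoxifen library (0.0684 and 0.0696) or Ezh1-present tamoxifen replicate 2 (0.0552). Il13ra1 lost its call without any of the 4 tamoxifen libraries (0.0769 to 0.0901), Il12a and Il21r without any of these or of the Ezh1-present oil libraries (0.0833 to 0.158 and 0.0668 to 0.126), and Il1f9 without any library except those of Ezh1-present oil (0.072 to 0.139). Il12rb1 (0.0681 to 0.186) and Il31ra (0.0501 to 0.153) lost theirs without any 1 of the 8.

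The tamoxifen comparison in Ezh1-present cells asks what goes with loss of Ezh2 while Ezh1 is present. It called 1 member (1.61%, against 0.903% of all rows), which was higher (0.637% of all rows were called higher and 0.266% lower). Without Ezh1, 3 were called (4.84%, against 3.4% of all rows), 1 higher (3.1% of all rows) and 2 lower (0.299% of all rows). At an unadjusted p under 0.05 there were 21 members with Ezh1 present (20.6% of all rows had such a p) and 12 without Ezh1 (17.9% of all rows).

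Il1a (chr2:129299610-129309972, mm10), which encodes IL-1 alpha, was called higher after tamoxifen in both genotypes. Its values were 0.11 and 0.05 in Ezh1-null tamoxifen, -1.12 and -1.13 in Ezh1-null oil, 1.29 and 1.53 in Ezh1-present tamoxifen, and -0.42 and -0.05 in Ezh1-present oil libraries. Within each genotype the tamoxifen libraries were above the oil libraries. The change was 1.20 ± 0.16 without Ezh1 (limma adjusted p = 0.0273) and 1.65 ± 0.16 with Ezh1 present (limma adjusted p = 0.0299). Without Ezh1 it was no longer called when Ezh1-null tamoxifen replicate 1 (0.128) or 2 (0.119), or Ezh1-null oil replicate 1 (0.0941) or 2 (0.109), was left out, nor with quantile normalization (0.0944). With Ezh1 present the call ended without any library except Ezh1-present tamoxifen replicate 1 and Ezh1-present oil replicate 2 (0.0687 to 0.111), and with the 4 Ezh1-present libraries alone (0.172). The Il1a row is overlapped over 8217 bases by Gm14023, and the sources do not say whether strand was used in counting, so reads of these 2 genes may not be told apart. Il1b, its neighbour and the other IL-1 cytokine, was not called in any comparison, with replicates at -0.84 and 0.70 in Ezh1-present tamoxifen libraries.

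Several members had larger tamoxifen changes that did not pass the test. Il2rb, the beta chain of the IL-2 and IL-15 receptors, lay at 0.67 and 0.91 in Ezh1-null tamoxifen, -0.67 and -1.22 in Ezh1-null oil, 0.99 and 2.17 in Ezh1-present tamoxifen, and -1.44 and -1.98 in Ezh1-present oil libraries. The tamoxifen libraries were above the oil libraries in both genotypes. Its change was 1.73 ± 0.45 without Ezh1 (limma adjusted p = 0.13) and 3.29 ± 0.45 with Ezh1 present (limma adjusted p = 0.0525). Between Ezh1-null tamoxifen and Ezh1-present oil libraries, which differ in both factors, it was called higher by 2.50 ± 0.45 (limma adjusted p = 0.0189), a call that ended without any of those 4 libraries (0.0637 to 0.0865). T and NK cells are known to carry this chain, and their markers moved with it. With Ezh1 present 17 of 18 had positive tamoxifen changes and 2 (Nkg7 and Klrd1) were called, and without Ezh1 13 of 18 were positive and 2 (Tbx21 and Gzmb) were called. Cd3e was at the floor in Ezh1-present oil libraries. With Ezh1 present, the means of basophil, mast cell and eosinophil, of mature neutrophil and of erythroid markers were higher after tamoxifen too. Those of megakaryocyte and platelet and of stromal and endothelial markers also were. The rise was thus not particular to T and NK cells. The part of any of these cells in the values of Il2rb was not tested.

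**Figure D4:**
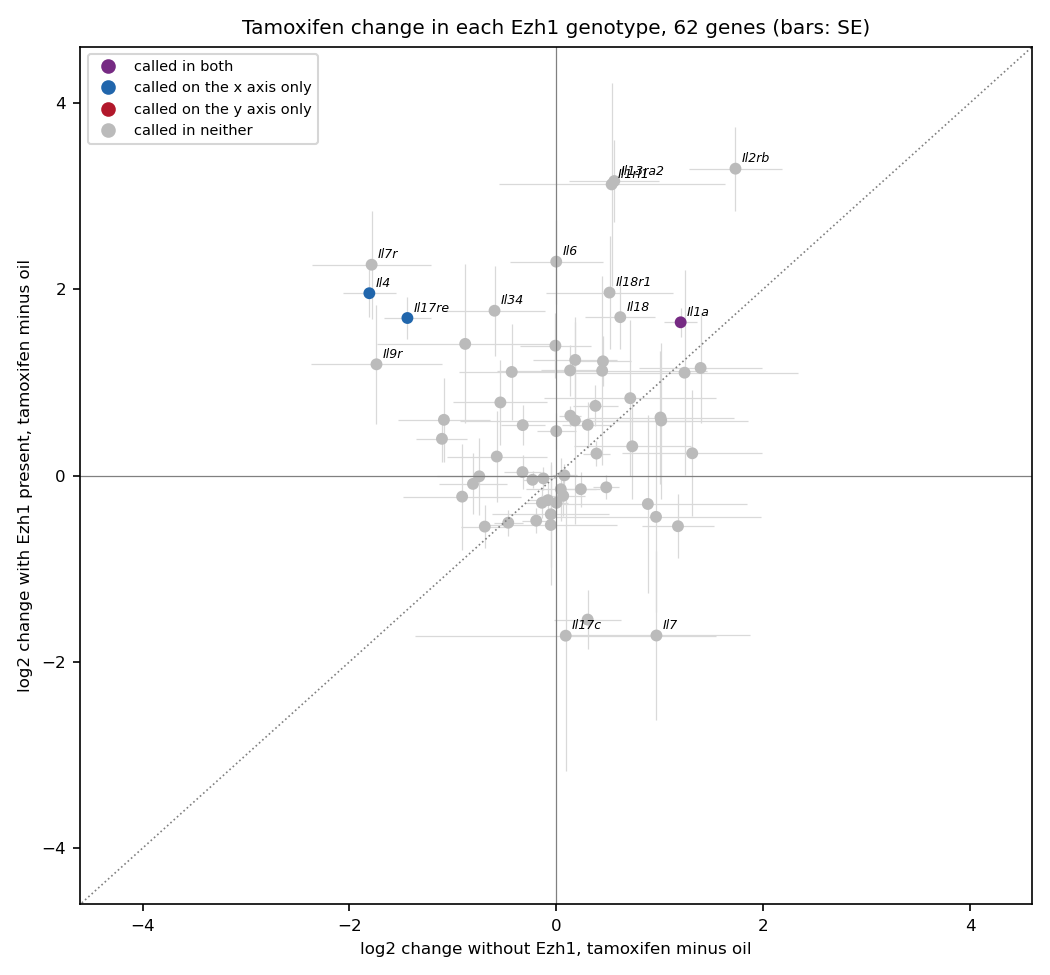
Log2 change of tamoxifen minus oil libraries for the 62 members, without Ezh1 on the x axis and with Ezh1 present on the y axis, with bars of 1 SE, colours by call and a dotted line of equality. Il1a is called on both axes (1.20 and 1.65), and Il4, Il17re and Il7r lie in the upper left, with negative changes without Ezh1 and positive ones with Ezh1 present.

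With Ezh1 present, Il1rl1 was among the largest positive changes whose groups did not overlap, at 3.12 ± 1.09 (limma adjusted p = 0.204). Il13ra2, with 9 and 11.8 reads after tamoxifen against none in oil, and Il6, with 4 and 8 against none, were there by the filter. Il7r had a change of 2.26 ± 0.58 (limma adjusted p = 0.128) there and of -1.78 ± 0.58 without Ezh1 (limma adjusted p = 0.2). Among the negative changes with Ezh1 present, Il17c had -1.72 (limma adjusted p = 0.555), Il17f -1.55 ± 0.32 (limma adjusted p = 0.0976) and Il12a -0.55 (limma adjusted p = 0.273). Il7, the cytokine of lymphoid progenitors, had 0 and 4.5 reads after tamoxifen against 8 and 7.88 in oil with Ezh1 present (limma adjusted p = 0.353). Without Ezh1, Il1r1 had a change of 1.40 ± 0.59 (limma adjusted p = 0.315), Il23a, the p19 chain of IL-23, one of 1.31 ± 0.68 (limma adjusted p = 0.4), and Il9r, the IL-9 receptor of mast cells, one of -1.74 ± 0.64 (limma adjusted p = 0.247). Il20ra, a receptor chain for IL-20, had 4 and 1.21 reads in Ezh1-null tamoxifen against 0 and 0 in Ezh1-null oil libraries (limma adjusted p = 0.621). None of these passed the test. Groups did not overlap for 36 members with Ezh1 present (53.8% of all rows) and for 31 without Ezh1 (49.2% of all rows). In the IL-1 group, 12 of 14 members had positive changes with Ezh1 present and 9 of 14 without Ezh1, with medians of 0.98 and 0.35 against 0.01 and 0.00 over all rows; 1 member, Il1a, was called in each. The 5 inhibitors and decoys, Il1rn, Il18bp, Il1r2, Il13ra2 and Il22ra2, all had positive changes with Ezh1 present, that of Il13ra2 by the filter, and 3 had them without Ezh1. None was called. Across the 62 members, the tamoxifen changes of the 2 genotypes, which share no library, had Pearson r = -0.01 and Spearman rho = 0.05 (n = 62 genes), against 0.26 and 0.22 over all 18051 rows.

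The interaction, which is the tamoxifen change without Ezh1 minus that with Ezh1 present, was called for 2 members (3.23%, against 0.476% of all rows), and 15 had an unadjusted p under 0.05 (14.9% of all rows). Il17re lay at -0.80 and -0.98 in Ezh1-null tamoxifen, 0.47 and 0.63 in Ezh1-null oil, 1.06 and 0.78 in Ezh1-present tamoxifen, and -1.07 and -0.47 in Ezh1-present oil libraries. Tamoxifen libraries were lower than oil libraries without Ezh1, by -1.44 ± 0.23 (limma adjusted p = 0.0436), and higher with Ezh1 present, by 1.69 ± 0.23 (limma adjusted p = 0.0525). The interaction was -3.13 ± 0.33 (limma adjusted p = 0.041). Il4 showed the same form on few reads, with 2 and 2 in Ezh1-null tamoxifen, 8 and 5 in Ezh1-null oil, 5 and 4 in Ezh1-present tamoxifen, and 0 and 0 in Ezh1-present oil libraries. It was called lower after tamoxifen without Ezh1 (limma adjusted p = 0.0343) and in the interaction (limma adjusted p = 0.0388). The tamoxifen calls of Il17re and Il4 without Ezh1 ended when a single library was left out: for Il17re any but those of Ezh1-present oil (0.0819 to 0.184) and for Il4 any but those of Ezh1-null oil (0.0762 to 0.147). Il7r had the largest interaction by value, -4.05 ± 0.82, which was not called (limma adjusted p = 0.14).

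**Figure D5:**
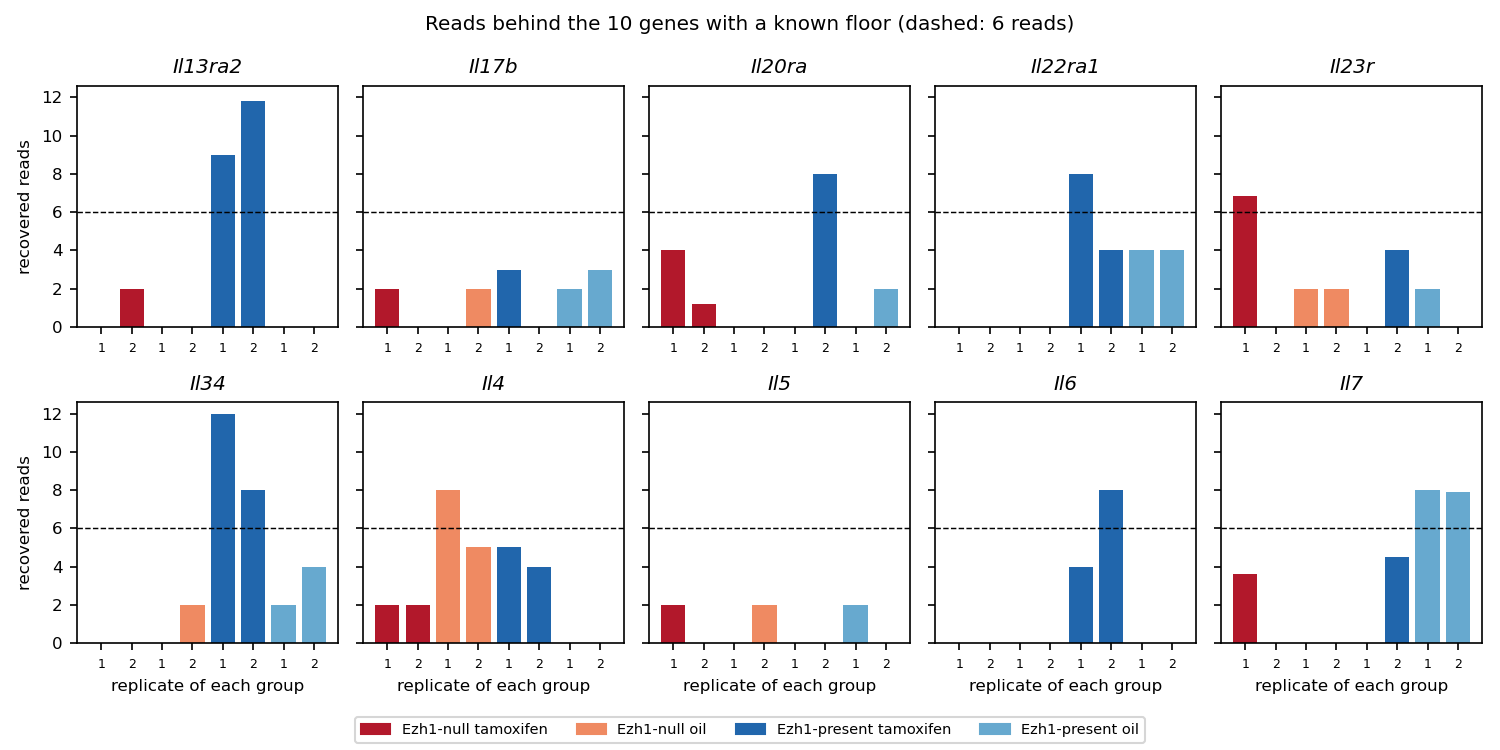
Reads recovered (y axis, shared scale from 0) for the 10 members whose floor is known, with the 8 libraries as bars on the x axis in the order Ezh1-null tamoxifen, Ezh1-null oil, Ezh1-present tamoxifen and Ezh1-present oil, 2 replicates each. No bar passes 12 reads, and the dashed line marks the 6 reads used as the limit.

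Between Ezh1-null tamoxifen and Ezh1-present oil libraries, 17 members were called (27.4%, against 23.4% of all rows), 10 higher and 7 lower (13.2% and 10.2% of all rows), and groups did not overlap for 41 (66.8% of all rows). The largest were Il28ra at 2.92 ± 0.34 (limma adjusted p = 0.00709), Il15 at 2.42 ± 0.25 (limma adjusted p = 0.00549) and Il15ra at 2.04 ± 0.11 (limma adjusted p = 0.00196) among the higher ones that held without any 1 library, and Il17f at -3.56 ± 0.32 (limma adjusted p = 0.00421) and Il17ra at -1.84 ± 0.11 (limma adjusted p = 0.00252) among the lower ones. Il1f9, Il12rb1 and Il21r also held. Il22ra1 did so on no read against 4 and 4, under the limit of 6, and with the floor raised to 4 its difference was 0 (adjusted p = 1). Il18r1, the binding chain of the IL-18 receptor, was called in this comparison and no other, at 2.53 ± 0.61 (limma adjusted p = 0.0392), and lost the call without any library except those of Ezh1-present tamoxifen (0.0553 to 0.155). Il1rl1 reached 3.97 ± 1.09 without passing the test (limma adjusted p = 0.0555). Il11ra1, Il12a, Il1rl2, Il2rg, Il31ra, Il4 and Il2rb made up the rest, and each of them lost its call without at least 2 single libraries (adjusted p up to 0.142). Il4 had 2 and 2 reads against 0 and 0, all under the limit, and it was not called with quantile normalization (adjusted p = 0.127) or with the floor raised to 4 (adjusted p = 1, difference 0). This comparison shares its libraries with the others above, so it is no separate evidence.

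The genes through which interleukins signal were looked at as 7 lists chosen with earlier results of these data known. Of the JAK kinases and STAT factors, Jak1, a kinase bound to many interleukin receptors, was called higher in Ezh1-null oil than in Ezh1-present oil libraries, at 0.91 ± 0.18 (limma adjusted p = 0.0214). Stat5b, which IL-3 and the common gamma chain group use, was called higher in Ezh1-null tamoxifen than in Ezh1-present tamoxifen libraries, at 0.42 ± 0.09 (limma adjusted p = 0.0439).

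The counts below stand against 12.5% of all rows called higher and 12.4% lower between genotypes in oil, and 6.77% and 5.44% after tamoxifen. Each list holds few genes, and nothing is read from its count. Of 18 genes of IL-1, IL-18 and IL-33 signalling, 5 were higher and 2 lower in Ezh1-null oil libraries, and 5 were higher and 1 lower after tamoxifen. Irak3, an inhibitory member of the IRAK kinases, was higher by 1.93 ± 0.22 in oil (limma adjusted p = 0.0056) and by 1.51 ± 0.22 after tamoxifen (limma adjusted p = 0.0204). Myd88, the shared adaptor, was higher by 0.73 ± 0.10 in oil (limma adjusted p = 0.00895) and by 0.59 ± 0.10 after tamoxifen (limma adjusted p = 0.0287). None of the 18 was called with tamoxifen. Among 13 receptor partners and relatives of IL-3 and IL-5, 4 were higher and 1 lower in Ezh1-null oil libraries. Tslp, a cytokine of the IL-7 type, was the only one of these called with tamoxifen. With Ezh1 present it lay at -1.91 and -1.05 in tamoxifen libraries and at -4.07, the lowest value of its row, in both oil libraries (limma adjusted p = 0.0421), and the interaction was not called (limma adjusted p = 0.0794). Of 13 SOCS and other feedback inhibitors, 2 were higher and 1 lower in oil and again after tamoxifen. The IL-17 signalling list has 5 genes on 6 rows, with 1 row higher and 2 lower in oil. Of 10 cytokines of other families, 1 (Ebi3, a chain of IL-27) was higher in oil, and none of the 4 neighbours of Il4 and Il5 was called in any comparison.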

How the data were processed

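RNA sequencing values of 8 libraries were taken from 2 tables of fold changes that the authors deposited. Per the file headers their library columns are normalized, and in the deposited tables they proved to be log2 values of a normalized count with a floor of 1, centred on each row's median. The deposited log2 fold change equals the difference of the group means to within 5.4e-07, and the deposited tables repeat it as a ratio (fold change). A column of signed fold changes that the authors deposited, read as a score, was not used in any test. Per the file headers, rows had first been filtered by percentile of raw values. The smaller table repeats 4576 of the 31574 rows. TruSeq libraries were made from total RNA per the labels' protocols, and the build is mm10 per the submitters' processing notes. The aligner, the counter and the scaling were not given in the sources used here.

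The floor of a row was known where at least 2 libraries tied at its lowest value (tolerance 2e-06). In such rows, 66.1% to 73.1% of a library's low values came within 0.01 of whole reads, most of them even numbers, so a limit of 3 pairs of reads (6 reads) was used. Total depth is unknown, so no test on counts was made. Limits cover counting error in the libraries without reads only, and take the reads of the other group as exact.

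limma 3.58.1 in R 4.3.3 was fitted to the 18051 rows in which 2 or more libraries exceeded the floor (12530 had none and 993 had 1), with 1 coefficient per group, no block and no variance trend. Residual degrees of freedom were 4 and prior degrees of freedom 1.24. The script was tested on simulated data. The alternatives were other filters, a raised floor, median centring, quantile normalization, robust moderation, a replicate block, the compared groups alone and each library left out. Where that left 1 library in a group, the lone library was assumed to vary like the others. With 2 libraries against 2, an exact permutation test cannot reach 0.05, so none was made. Tables were handled in pandas 2.3.3 and figures drawn with matplotlib 3.10.9.

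The members and lists were chosen with earlier results of these data known. Named were members called in any comparison, the 4 largest rises and 4 largest falls per comparison among members whose groups do not overlap, and the shared receptor chains with Il1rl1. Counts or means of the 9 marker lists are given in the report or in the closing section. Counts and the median for the list of JAK kinases and STAT factors are not reported here.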

Additional observations from a re-analysis of the deposited data

Results flagged for a closer look

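The tamoxifen change differed between Ezh1 genotypes in 2 members by the interaction term of limma. For Il17re, the receptor for IL-17C, the change without Ezh1 minus that with Ezh1 present was -3.13 (adjusted p = 0.041). Both libraries of Ezh1-null tamoxifen were below both of Ezh1-null oil, and both of Ezh1-present tamoxifen were above both of Ezh1-present oil. This call ended without Ezh1-present oil replicate 1 (0.0715) and without any other library except Ezh1-present oil replicate 2 (up to 0.129). For Il4 the same term was -3.764 (adjusted p = 0.0388), a fitted value that is no bound, since Ezh1-present oil libraries had 0 reads and no library had more than 8. It ended without any library except those of Ezh1-null oil (0.0731 to 0.139), and with the floor raised to 4 its adjusted p was 0.307.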

How the results depend on the processing

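The number of calls depended on which libraries entered the fit. Under 16 alternatives (15 for the interaction), no called change took the opposite sign, but some fell to 0. With the floor raised to 4, Il22ra1 in oil, and Il22ra1 and Il4 between Ezh1-null tamoxifen and Ezh1-present oil, had a difference of 0 (adjusted p = 1), and Il22ra1 after tamoxifen one of -0.30 (0.313). Leaving out each library in turn gave 4 to 15 members called between Ezh1-null and Ezh1-present cells after tamoxifen (20 with all libraries) and 10 to 21 in oil (23). It gave 9 to 17 between Ezh1-null tamoxifen and Ezh1-present oil (17), 0 to 2 for tamoxifen without Ezh1 (3), 0 to 4 with Ezh1 present (1) and 0 to 2 for the interaction (2). With the compared groups alone, 1 member was called between genotypes after tamoxifen, 14 in oil, 1 for tamoxifen without Ezh1 and 0 with Ezh1 present, a fit with fewer libraries behind the spread. For tamoxifen with Ezh1 present, quantile normalization gave 5 and the floor raised to 4 also 5; the interaction then gave 1 and 0, and 0 with a filter of 4 libraries above the floor, and the cause was not tested. Replicate numbers did not pair the libraries: the differences between replicates correlated between -0.062 and 0.079 across groups. A replicate block gave 12 calls between genotypes after tamoxifen, 0 for tamoxifen with Ezh1 present and 0 for the interaction, and 2, 16 and 23 for tamoxifen without Ezh1, the comparison of both factors and oil. Median centring moved no library by more than 0.0031 and changed no count. Quantile normalization ended 10 calls. Among them were those of Il2rg, Il1a, Il13ra1 and Il6ra in oil (limma adjusted p from 0.0509 to 0.112). That of Il18bp between genotypes after tamoxifen was another (limma adjusted p = 0.067). Depth limits Il4, Il5, Il6, Il7, Il13ra2, Il17b, Il20ra, Il22ra1, Il23r and Il34, which had at most 12 reads in a library.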

Other observations

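Likeness between members is given as a description over n = 8 libraries. Among cytokines and their receptor chains, Il15 and Il15ra had Pearson r = 0.979, Il17f and Il17ra 0.945, Il1f9 and Il1rap 0.931, and Il12a and Il12rb1 0.907. Other pairs were not alike in this way. Il4 and Il4ra, Il6 and Il6ra, Il7 and Il7r, Il18 and Il18r1, and Il27 and Il27ra were not among each other's 3 most alike members. Il2rg was most like Il17ra (0.918), and Il4 was most like Il7r (0.966). All 8 libraries share 1 normalization, and both Ezh1 genotypes enter each value.

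Marker lists not described in full above also differed. The mean of 9 mature neutrophil markers ran from 0.38 to 1.73 in Ezh1-null tamoxifen and from -1.75 to -0.10 in Ezh1-present tamoxifen libraries. That of 6 erythroid markers ran from 0.01 to 0.25 in Ezh1-null tamoxifen, -0.08 to 1.34 in Ezh1-null oil, -0.33 to 2.39 in Ezh1-present tamoxifen and -2.31 to -1.58 in Ezh1-present oil libraries, and that of 6 megakaryocyte and platelet markers from -0.06 to -0.02, -1.04 to -0.69, 0.97 to 2.57 and -0.32 to 0.09 in the same order. The mean of 7 monocyte and macrophage markers stayed between -0.20 and 0.11, although 3 of them were called higher and 4 lower in Ezh1-null oil libraries relative to Ezh1-present oil libraries. Their part in the values of the interleukin genes was not tested.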
